A study of Mus musculus with 661 samples.

Results

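Marrow mesenchymal cells sorted as MSC-L were compared with endosteal mesenchymal cells sorted as MSC-S, both from young mice of about 2 months of age, across all genes. The cells were chosen by their sort label and age alone, 53 young MSC-L against 59 young MSC-S, which made 112 of the 661 single cells of the study. The other cells were old MSC-L and MSC-S, and osteoprogenitors and endothelial cells of both ages. All were sorted singly into the wells of plates for RNA sequencing. The methods of the study describe unmanipulated wild-type C57BL/6 mice of both sexes, with no transgene, treatment or deletion in either compared group. MSC-L were gated for LepR, PDGFRα and CD51 and against Sca-1, CD31, CD45 and Ter119, and were released by a short collagenase step from flushed femoral marrow. MSC-S were gated for Sca-1 and CD51 and against CD31, CD45 and Ter119, and were released by a longer collagenase step from crushed leg, arm and pelvic bone. Population, place, bones and digestion therefore changed together, and their parts in any difference given here cannot be told apart. The comparison asks which genes separate MSC-L of the marrow from endosteal MSC-S when both are young.

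Leptin receptor-positive stromal cells surround the sinusoids of the marrow and are known as a main source of the chemokine CXCL12 and of stem cell factor, which keep hematopoietic stem cells in place. Sca-1-positive mesenchymal cells of the bone surface and periosteum overlap in their genes with fibroblast progenitors that lie along vessels and fascia in many organs. Tendon insertions, cartilage and joint lining border the same bone surfaces, and their cells are marked by matrix genes such as tenomodulin, aggrecan and lubricin.

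Levels are given in CPM, counts scaled to a nuclear total of 1000000, either for all cells of a group added together or, where a range over cells is given, for each cell alone. Nuclear counts per cell ranged from 216816 to 667862 in MSC-L, with a median of 463538, and from 104972 to 885957 in MSC-S, with a median of 602470. The median cell had counts for 6143 genes in MSC-L and 5982 genes in MSC-S, and the median mitochondrial share was 1.27% and 1.44%. The cells came from 3 young mice, but the labels do not say which cell came from which animal. Each group was therefore treated as 1 sample without replicates, and no test, standard error or p-value was computed. Intervals in brackets are exact 95% intervals (Poisson for summed counts, Clopper-Pearson for shares of cells) and cover counting error only, since reads amplified without molecular identifiers are not independent molecules. Intervals and limits for shares of cells treat cells as independent draws, although many cells came from the same mouse. Library numbers in the cell names fell into 3 separate sets, with 20, 13 and 20 MSC-L and 20, 20 and 19 MSC-S, and ratios were recomputed inside each set. What a set stands for is not stated by the labels. The sets stood apart in many genes, among them the immediate early genes, *Prg4* and *Cd34*, and values are given by set for some of these. They also differed in the mix of clusters that the authors deposited. MSC-S of cluster 16 lay mostly in the second set, and those of clusters 6 and 7 lay outside it. The part of this mix in the differences between sets was not tested.

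Transcripts of the sorted proteins followed the gates in most cells, which is a check of the labels and not a result. *Ly6a*, which encodes Sca-1, reached 0 to 8.04 CPM per cell with a median of 0 in MSC-L and 0 to 3532 CPM per cell with a median of 632 in MSC-S. At least 10 CPM was found in 0 of 53 MSC-L, which allows a share of up to 6.72% of cells at that level, and in 56 of 59 MSC-S (94.9%, 85.9 to 98.9%). *Lepr* was measured at 3.800 to 8049 CPM per cell with a median of 2889.7 in MSC-L and 0 to 1259 CPM per cell with a median of 1.13 in MSC-S, where 17 of 59 cells (28.8%, 17.8 to 42.1%) passed 10 CPM. The MSC-S gate did not use LepR, so these cells do not go against their label. Some cells were under 10 CPM for a gene of their gate, 1 MSC-L for *Lepr*, 2 MSC-L for *Pdgfra* (the former among them) and 3 MSC-S for *Ly6a*. In the clusters deposited by the authors, 51 of 53 MSC-L lay in those that the paper pools as MSC-L-like. Of the MSC-S, 50 of 59 lay in those pooled as MSC-S-like. The other 2 MSC-L and 9 MSC-S lay in clusters pooled as osteoprogenitor-like. *Pdgfra* passed 10 CPM in 51 of 53 MSC-L and 52 of 59 MSC-S, and *Itgav*, which encodes CD51, stood at 192 and 110.0 CPM. Transcripts of the gated-out proteins were near 0, with *Ptprc* (CD45) at 0.0438 and 0.0289 CPM and *Pecam1* (CD31) at 0.658 and 1.19 CPM. *Xist*, a marker of female cells, passed 10 CPM in 0 of 53 and 0 of 59 cells, while the sum of 4 genes of the Y chromosome (*Ddx3y*, *Eif2s3y*, *Kdm5d* and *Uty*) did so in 48 of 53 and 44 of 59. The methods name both sexes, and no cell of the comparison carried *Xist* at that level. These 5 genes were looked at after the data were seen.

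**Figure D1:**
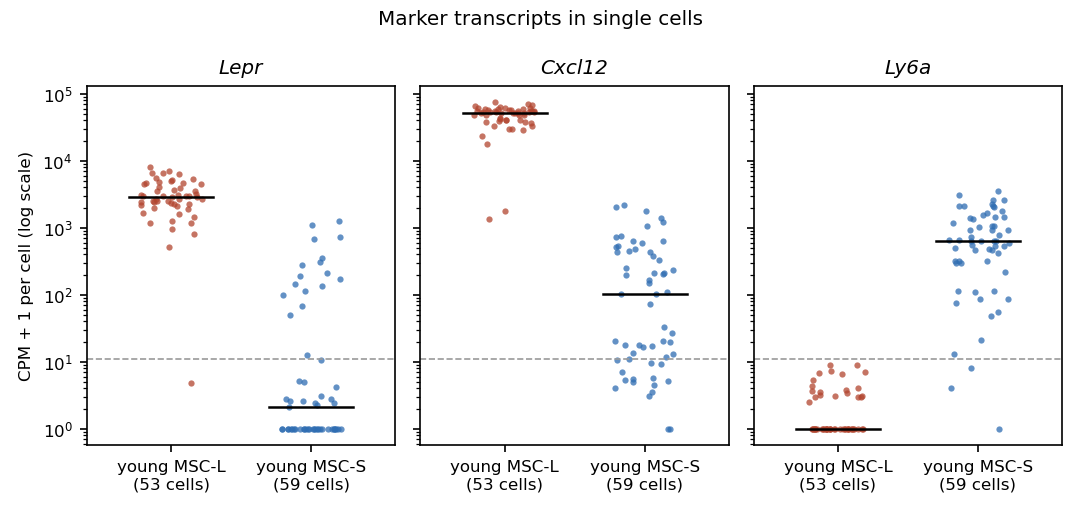
Each point is 1 cell, with its CPM plus 1 on a log axis for *Lepr*, *Cxcl12* and *Ly6a*; black bars are medians and the dashed line is 10 CPM. *Ly6a* lies under the line in all 53 MSC-L, *Cxcl12* lies over it in all 53, and MSC-S spread over both sides for *Lepr* and *Cxcl12*.

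Markers of other cell types were read from whole lists, and a cell carried a marker at 10 CPM or more. Of 14 hematopoietic markers no cell carried 3, and their summed level was 28.9 CPM in MSC-L and 30.04 CPM in MSC-S, with *Coro1a* and *Srgn* as the most abundant. *Cd52*, *Tyrobp*, *S100a8*, *Elane* and *Mpo* were at 0 in both groups, and *S100a9* and *Spi1* in MSC-S. The 6 erythroid markers summed to 26.4 and 0.955 CPM, *Hbb-bs* had the most counts in both groups, *Alas2* was at 0 in MSC-S, and 2 MSC-L carried at least 3. The 12 endothelial markers summed to 27.9 CPM, mostly *Emcn*, and 57.9 CPM, mostly *Tek*, and 2 MSC-S carried at least 3. The 10 pericyte and smooth muscle markers summed to 712 and 429 CPM. *Notch3* led them in MSC-L and *Cspg4* in MSC-S, *Cnn1* was at 0 in MSC-L, *Myh11* and *Higd1b* were at 0 in MSC-S, and 6 MSC-L and 1 MSC-S carried at least 3. The 5 Schwann cell markers summed to 188 and 68.6 CPM with *S100b* on top, and 1 MSC-L carried at least 3, a cell that alone held 99.8% of the *Sox10* counts of its group. The 5 skeletal muscle markers reached 5.52 and 2.03 CPM, led by *Acta1*, with *Myod1* at 0 in both groups and *Pax7* and *Myf5* in MSC-L, and no cell carried 3. The 5 osteoclast markers reached 173 and 624 CPM, of which *Ctsk* was the larger portion, with *Calcr* at 0 in both, and 1 MSC-S carried 3. The part of such cells in the values below was not tested beyond leaving out those with hematopoietic or endothelial markers.

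A gene was called higher in a group when it was at least 2-fold higher there, both pooled and inside each of the 3 sets, with 1 CPM added to each level and at least 100 counts over both groups in at least 5 cells. Of 13645 genes that could be tested in this way, 1396 (10.2%) were called higher in MSC-L and 923 (6.76%) higher in MSC-S. The median log2 ratio of MSC-L over MSC-S over all tested genes was 0.32. Both the split and this median moved with the scaling. With TMM or median-of-ratios scaling the median shifted by -0.31 or -0.33, and 49.03% or 49.3% of the calls were higher in MSC-L in place of 60.2%. Ratios below are therefore to be read against 0.32 and not against 0.

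The calls covered 1136 protein-coding genes on the MSC-L side and 827 on the MSC-S side. No called gene separated the groups fully, since for each of them some cells of the lower group reached the range of the higher. Taking every pair of an MSC-L and an MSC-S cell, the cell of the higher group was higher in at least 90% of pairs for 98 genes called in MSC-L and 43 called in MSC-S. The median share over called genes was 64.9% and 66.6%, so for most called genes the cells of the groups overlapped broadly. In 60 and 47 called genes a single cell held over 50% of the counts of the higher group.

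Old cells, which the comparison did not draw on, gave a separate reading of the same contrast. Among 13707 genes tested in 58 old MSC-L and 59 old MSC-S, 12.3% were called higher in MSC-L and 6.08% higher in MSC-S. Of the genes called higher in young MSC-L and also tested in old cells, 684 of 1320 (51.8%) were called the same way there, and of those called higher in young MSC-S, 450 of 877 (51.3%). The pooled ratio had the opposite sign in 75 and 70 of them. Old cells were sorted by the same gates.

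Levels were compared between genes per kilobase of exon. Among protein-coding genes *Cxcl12* came first in MSC-L at 5963 CPM per kb and made 4.88% of all nuclear counts. It was followed by *Hp* (haptoglobin) at 4765 CPM per kb, *Gpx3* at 4092 CPM per kb, *Ibsp* at 3874 CPM per kb and *Serping1* at 3035 CPM per kb. The first protein-coding genes in MSC-S were *Prg4* (lubricin) at 11901 CPM per kb, 5.09% of nuclear counts, and *Gsn* (gelsolin) at 7084 CPM per kb. The level of *Prg4* rested on the second set and on few cells, as given with its values by set and by cell. It and *Gsn* were followed by *Fos*, *Dcn* and *Gpx3* at 3880.2, 3764 and 3328 CPM per kb. *Gpx3*, a secreted glutathione peroxidase, was the 1 gene among the first 5 of both groups. *Gpx3* and *Gsn* lie outside the rule for named genes and were singled out after their levels were seen.

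The 15 genes with the highest log2 ratios toward MSC-L, among called genes with at least 1000 counts that were detected in at least 50% of the higher group, began with *Esm1*, which encodes endocan, a secreted proteoglycan. It ran at 0 to 4363 CPM per cell with a median of 1717 in MSC-L against 0 to 7.92 CPM per cell with a median of 0 in MSC-S. The summed levels were 1807 CPM (1789.8 to 1825) and 0.434 CPM (0.243 to 0.716), a log2 ratio of 10.30. *Gdpd2*, a glycerophosphodiester phosphodiesterase, ran at 0 to 3724 CPM per cell with a median of 1404 against 0 to 3.102 CPM per cell with a median of 0, with a log2 ratio of 10.19. For each of these genes at least 1 MSC-L had no count, so the groups overlapped at 0. *Hp*, a hemoglobin-binding plasma protein, had no such cell, with 5.99 to 22774 CPM per cell with a median of 6898 in MSC-L. In MSC-S its median was 0, and 1 of 59 cells held 87.5% of the counts behind 9.000 CPM. The log2 ratio of 9.58 was thus 7.98 in the set of that cell and 12.16 and 12.04 in the others. Without the cells of osteoprogenitor-like clusters the log2 ratio was 11.79.

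The kininogens *Kng1* and *Kng2*, precursors of bradykinin, stood at 606 and 591 CPM in MSC-L against 0.0579 (0.00701 to 0.209) and 0.318 CPM in MSC-S. *Agt*, the angiotensin precursor, was at 1405 against 6.57 CPM, and 1 MSC-S held 94.3% of the latter. The protease inhibitors *Serpina3g* and *Serpina3f* had 634 and 342 CPM in MSC-L. *Serpina3f* had no count in MSC-S and was at least 3939.9-fold higher in MSC-L, taking 3 counts over the group as the limit of a count of 0. Such paralogs are close in sequence, and the values rest on reads that the authors' mapping could assign to 1 of them. *Il1rn*, the interleukin 1 receptor antagonist, was likewise without counts in MSC-S and at 0 to 2719.8 CPM per cell with a median of 47.2 in MSC-L, at least 3926-fold higher over the group. Its median in MSC-L was far under its highest cell, so the gene was strong in some MSC-L and without a count in others.

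Several of the remaining genes encode membrane proteins. *Cdh2*, the adhesion molecule N-cadherin, was found in each MSC-L at 1.497 to 1439.7 CPM per cell with a median of 354, and in MSC-S at 0 to 4.57 CPM per cell with a median of 0. *Slc26a7*, an anion transporter, and *S1pr3*, a sphingosine 1-phosphate receptor, stood at 676 and 617 CPM against 0.2605 and 1.01 CPM. *Wdr86* had 367 CPM against 0.0868 CPM (0.0179 to 0.254). *Grem1*, a BMP antagonist, and *Heyl*, a Notch target, completed the 15 and are taken up with their pathways. In old cells the log2 ratios of the 15 genes ranged from 4.48 to 9.79, all of the same sign.

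The 15 genes with the lowest log2 ratios, chosen by the same rule toward MSC-S, began with *Myoc*, *Tnxb* and *Prg4*. *Prg4*, which lubricates joints, was the highest protein-coding gene of MSC-S per kb and ran at 0 to 393 CPM per cell with a median of 17.1 in MSC-L and 4.096 to 289738 CPM per cell with a median of 1086 in MSC-S. The summed levels were 62.7 CPM (59.5 to 66.04) and 50938 CPM (50862 to 51013), a log2 ratio of -9.64. The cells of the groups overlapped, since the lowest MSC-S lay under the median MSC-L. In both groups *Prg4* was highest in the second library-number set, with 21.97, 170.1 and 30.04 CPM over the sets in MSC-L and 25369, 111928 and 13065 CPM in MSC-S. *Fn1*, fibronectin, ran at 0 to 617 CPM per cell with a median of 15.2 in MSC-L and 18.8 to 80108 CPM per cell with a median of 6806 in MSC-S, and no MSC-S was without it.

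*Tnxb*, tenascin-X, had the second lowest ratio (-9.78) after *Myoc*, myocilin (-9.81). *Tnxb* ran at 0 to 6.44 CPM per cell with a median of 0 in MSC-L and 0 to 9845 CPM per cell with a median of 616 in MSC-S, and the MSC-S cell was higher in 98.7% of cell pairs. *Myoc* had a median of only 15.4 CPM in MSC-S under a highest cell of 20847 CPM, so its summed level of 1886 CPM came from a minority of cells. The same was true of *F13a1*, coagulation factor XIII A, *Htra4*, a secreted serine protease, and *Thbs4*, thrombospondin 4. Their MSC-S medians were 2.43, 7.32 and 7.21 CPM and their highest cells 10292, 19036 and 25553 CPM. Over the 3 sets *F13a1* had 611, 2782 and 753 CPM in MSC-S, *Htra4* 1598, 3595 and 533 CPM, and *Thbs4* 1579.7, 198 and 1988 CPM. The second set was thus the highest for *F13a1* and *Htra4* and the lowest for *Thbs4*. By contrast *Igfbp6*, which binds insulin-like growth factor 2, *Has1*, a hyaluronan synthase, and *Ackr3*, a scavenging receptor for CXCL12, had MSC-S medians of 1135, 933 and 317 CPM. MSC-L medians of these 3 genes were 0. *Myoc* and *Igfbp6* were lowest in the second set, with 2843, 658 and 2144 CPM and 2715, 655 and 2978 CPM over the sets in MSC-S. *Dpt* (dermatopontin), *Col14a1*, *Pcolce2*, a procollagen processing enhancer, and *Hmcn2* (hemicentin 2) stood between 573 and 603 CPM in MSC-S and at or under 0.482 CPM in MSC-L. MSC-S medians of *Col14a1* and *Hmcn2* were only 6.14 and 1.13 CPM. Over the 3 sets *Col14a1* had 993, 40.6 and 693 CPM in MSC-S and *Hmcn2* 614, 43.2 and 1110.1 CPM, so both were lowest in the second set. *Ly6a*, a criterion of the sort, was the last of the 15. In old cells the log2 ratios of the 15 genes ranged from -10.81 to -7.60, and 14 of the 15 were called. *Thbs4* was not called there, with a log2 ratio of -0.42 in the second set, and *Hmcn2* had -2.35 in that set.

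**Figure D2:**
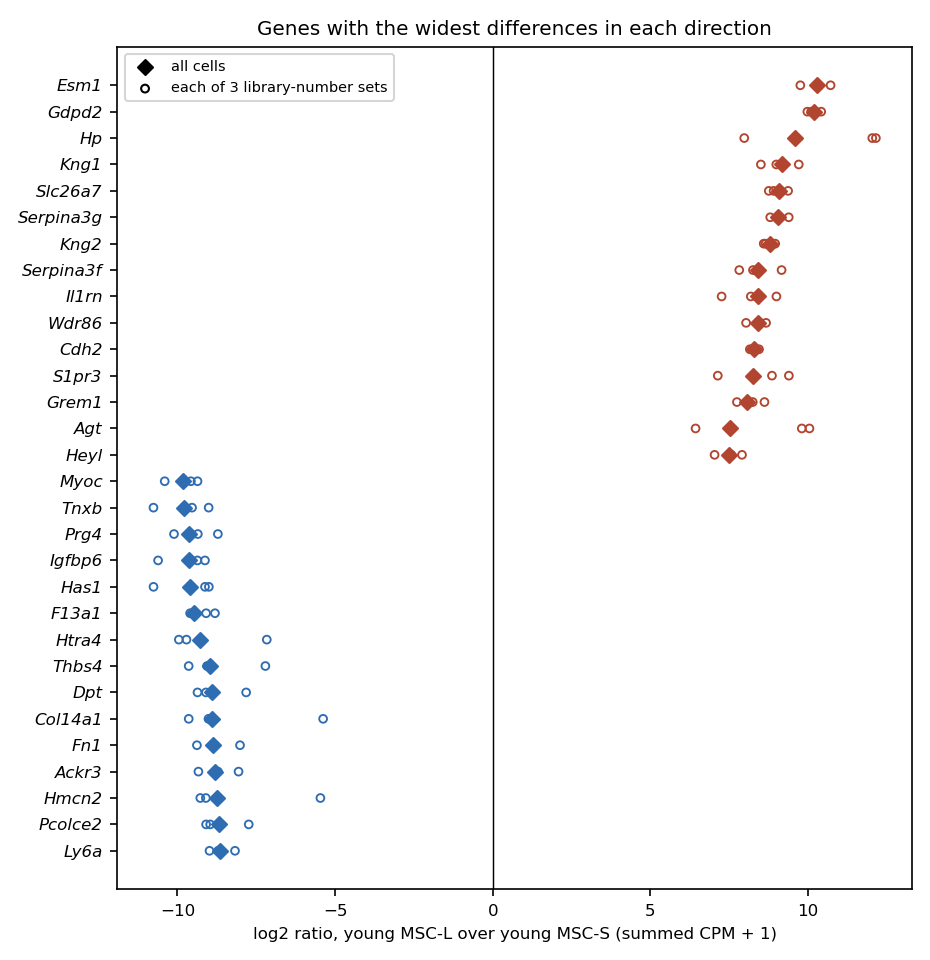
Log2 ratio of MSC-L over MSC-S (summed CPM plus 1) for the 15 named genes of each direction, with diamonds for all cells and open circles for each of 3 library-number sets. All circles lie on the side of their diamond, and several genes, among them *Hp*, *Agt*, *Htra4*, *Thbs4*, *Col14a1* and *Hmcn2*, have 1 set apart from the others.

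Lists of genes were then described by role, each by its count of called members beside the shares over all genes given above and by its median log2 ratio beside 0.32. A gene that belongs to several lists is counted in each. The lists were chosen with earlier results of these data known, so their counts of calls are descriptions and not independent support. In the 6 of these lists with tested genes at 0 in a group, the median was the same with those genes at the bound of 3 counts. Of 11 tested factors that support blood cells, 7 were called higher in MSC-L and 0 higher in MSC-S, with a median log2 ratio of 3.12. *Cxcl12* ran at 1374 to 74717 CPM per cell with a median of 52431 in MSC-L and 0 to 2189.8 CPM per cell with a median of 102 in MSC-S, with a log2 ratio of 7.36. The lowest 2 of 53 MSC-L, at 1374 and 1776 CPM, lay within the MSC-S range, and all others lay above it. The former was a cell of an osteoprogenitor-like cluster. *Kitl*, the gene of stem cell factor, ran at 1.497 to 6385 CPM per cell with a median of 1624 in MSC-L and 0 to 255 CPM per cell with a median of 0 in MSC-S, with a log2 ratio of 6.50. *Vcam1*, an adhesion molecule for blood cells, and *Il7*, needed by lymphocyte progenitors, had log2 ratios of 5.20 and 4.77. Over the sets *Il7* had 3.87, 5.45 and 7.19, and without the highest cell of each group 5.49. The myeloid growth factors *Il34* and *Csf1* had ratios of 4.25 (5.20 without the highest cell of each group) and 1.46, and *Angpt1*, a ligand of the TEK receptor, 3.12. *Csf1* was thus the closest of the 7, as MSC-S had 350.4 CPM against 969 CPM. Its log2 ratio was 1.03 in the first set, near the 2-fold limit. Pooled, it was 1.13 and 1.11 under TMM and median-of-ratios scaling. *Il15*, *Flt3l*, *Ptn* and *Igf1* were not called, and *Thpo* was not tested. Summed over the list, 51 of 53 MSC-L lay above the highest MSC-S. This sum is largely *Cxcl12*, with 48750 of the 54594 CPM of the list in MSC-L.

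Chemokine ligands did not move as a group. Of 12 tested, 4 were called higher in MSC-L and 5 higher in MSC-S, with a median log2 ratio of -2.59 and medians of 0.38, -1.34 and -0.16 over the sets. *Cxcl14* and *Cx3cl1* joined *Cxcl12* on the MSC-L side with 1135 and 169 CPM against 119 and 42.4 CPM. *Cxcl9*, an interferon-induced ligand, was also called there, and 1 MSC-L held 48.7% of its counts. On the MSC-S side *Cxcl1*, a neutrophil attractant, had 956 CPM against 51.9 CPM, of which 1 MSC-L held 94.8%. *Ccl7* had 230.1 against 2.41 CPM, and *Ccl11* (eotaxin) and *Cxcl2* had no count in MSC-L, so that they were at least 367-fold and 266-fold lower there over the group. The median of the list was carried by few cells, as it was 0.44 when the highest cell of each group was left out for each gene.

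Receptors and ligands of growth factors were called in both directions. Of 16 tested, 5 were called higher in MSC-L and 2 higher in MSC-S, with a median log2 ratio of 0.61. *Pdgfrb*, the platelet-derived growth factor receptor of perivascular cells, had 1419 CPM in MSC-L and 145 CPM in MSC-S. *Fgfr2* had 838 against 74.2 CPM, and *Vegfc*, a growth factor of lymphatic vessels, 384 against 33.9 CPM. *Fgf7* and *Pdgfd* were the other called ligands of MSC-L, whereas *Fgf18* and *Pdgfc* were called in MSC-S with 44.5 and 24.6 CPM and 1 count each in MSC-L, or 0.0438 CPM (0.00111 to 0.244). *Pdgfra*, used by the MSC-L gate alone, had a log2 ratio of -0.07.

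Of 8 tested Notch pathway genes, 4 were called higher in MSC-L and 0 higher in MSC-S, with a median log2 ratio of 3.60 and medians of 2.56, 3.01 and 3.55 over the sets. The pooled median was the highest of the lists, but not in each set: the osteoblast, the adipogenic and the blood-cell supporting lists stood higher in the first set and the last of these in the second. The receptor *Notch3* ran at 0 to 2284 CPM per cell with a median of 442 in MSC-L and 0 to 176 CPM per cell with a median of 0 in MSC-S, with 1 MSC-S holding 89.6% of the counts there. The receptor *Notch1* had 149 against 10.2 CPM and *Notch2*, similar in both, 386 against 324 CPM. Among target genes *Heyl* had 181 CPM in MSC-L and no count in MSC-S, which made it at least 2081-fold higher over the group. *Hey1* was called with 20.3 CPM in MSC-L, and *Hes1* and the ligand *Jag1* were not called.

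Genes of the fat and bone lineages were both weighted to MSC-L. Of 13 tested adipogenic and lipid genes, 7 were called higher in MSC-L and 1 higher in MSC-S, with a median log2 ratio of 3.03. *Lepr*, a sort criterion, is among them. *Adipoq* (adiponectin) ran at 0 to 7219 CPM per cell with a median of 1751 in MSC-L. In MSC-S its median was 0 and 1 cell, of an osteoprogenitor-like cluster, held 99.5% of the counts behind 32.2 CPM. *Lpl* (lipoprotein lipase) had 1866 against 127 CPM and *Apoe* 6313 against 707 CPM, of which 1 MSC-S held 56.4%. The log2 ratio of *Lpl* was 3.86, with 4.19, 2.70 and 4.77 over the sets and 4.57 without the highest cell of each group. The regulators *Pparg* and *Cebpa* had log2 ratios of 3.70 and 3.03, while *Cebpb*, an early regulator, was called in MSC-S with -1.76. *Pparg* had 7.32, 2.38 and 2.86 over the sets, and 4.41 without the highest cell of each group. Genes of the lipid droplet, *Plin2* and *Plin4*, were not called. *Plin4* had a log2 ratio of -4.62, toward MSC-S, and -1.17 without the highest cell of each group. *Fabp4*, of the same list, had 0.29 pooled and 3.87, -3.41 and 4.11 over the sets.

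Of 13 tested osteoblast genes, 6 were called higher in MSC-L and 2 higher in MSC-S, with a median log2 ratio of 2.19 and medians of 5.57, 2.84 and 1.47 over the sets. *Ibsp* (bone sialoprotein) ran at 3.59 to 21946 CPM per cell with a median of 7311 in MSC-L and 0 to 7841 CPM per cell with a median of 1.71 in MSC-S. *Runx2* and *Sp7*, transcription factors of the osteoblast, had 439 and 65.2 CPM in MSC-L at log2 ratios of 4.39 and 4.77, and *Spp1* (osteopontin) had 2704 against 590.2 CPM. *Phex*, a peptidase of bone cells, was also called there. *Col1a1* was called in the opposite direction with 2109 CPM in MSC-S against 163 CPM in MSC-L, and with it *Bglap2*, one of the osteocalcin genes, at 4.95 against 0.702 CPM. *Alpl*, the alkaline phosphatase of mineralizing cells, was not called and its counts were uneven, with 52.8% and 44.5% of them in 1 cell of each group. *Ibsp*, *Runx2*, *Sp7*, *Spp1* and *Phex* were thus higher in MSC-L, and *Col1a1* and *Bglap2* higher in MSC-S.

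The MSC-S side was marked by genes of fibroblast progenitors. Of 17 tested, 16 were called higher in MSC-S and 0 higher in MSC-L, with a median log2 ratio of -7.71, the lowest of all lists. *Ly6a* is among them and was a sort criterion, and *Ly6c1* is a close paralog of it. *Has1*, *Dpt*, *Ackr3*, *Pcolce2* and *Ly6a* are also among the 15 genes named above for their low ratios. *Cd34*, a surface sialomucin, ran at 0 to 5.62 CPM per cell with a median of 0 in MSC-L and 0 to 5652 CPM per cell with a median of 7.91 in MSC-S. Its MSC-S levels over the 3 sets were 1186, 102 and 555 CPM, so the cells of the second set held less of it. That set also had another mix of deposited clusters. *Pi16*, a peptidase inhibitor, and *Dpp4* had 110.1 and 109 CPM in MSC-S against 0.132 (0.0271 to 0.384) and 0.0877 CPM (0.0106 to 0.317) in MSC-L. *Clec3b* and *Wnt2* had 227 and 34.9 CPM against 0.0877 (0.0106 to 0.317) and 0.0438 CPM (0.00111 to 0.244). *Mfap5*, a microfibril protein, and *Procr*, the protein C receptor, had log2 ratios of -7.68 and -6.74, and *Anxa3* and *Cd55* -4.42 and -4.85. *Fbn1* (fibrillin 1) was the uncalled member, with 1003 and 1252 CPM.

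Genes of tendon and joint lining were almost as one-sided. Of 12 tested, 11 were called higher in MSC-S and 0 higher in MSC-L, with a median log2 ratio of -7.32. The list as a whole summed to 0 to 1196 CPM per MSC-L and 1037 to 290843 CPM per MSC-S, and 57 of 59 MSC-S lay above the highest MSC-L. This sum is largely *Prg4*, with 50938 of the 67235 CPM of the list in MSC-S. *Prg4*, *Tnxb* and *Thbs4* are also among the 15 genes named above for their low ratios. *Comp*, a cartilage and tendon matrix protein, ran at 0 to 1137 CPM per cell with a median of 9.705 in MSC-L and 0 to 35616 CPM per cell with a median of 364 in MSC-S. *Fmod* (fibromodulin) and *Cilp* had 3831 and 3175 CPM in MSC-S against 43.8 and 7.02 CPM, with MSC-S medians of only 8.55 and 9.602 CPM. *Tnmd* (tenomodulin), which marks tendon cells, had 164 CPM in MSC-S and 1 count in MSC-L, or 0.0438 CPM (0.00111 to 0.244). *Angptl7*, *Cilp2* and the tendon transcription factor *Scx* were called as well, at 1140.5, 257 and 23.9 CPM. *Kera* (keratocan) was called on 226 CPM, 95.6% of which 1 MSC-S held, and *Mkx* was not called.

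Of 11 tested cartilage genes, 9 were called higher in MSC-S and 0 higher in MSC-L, with a median log2 ratio of -3.29. *Chad* (chondroadherin) ran at 0 to 51.5 CPM per cell with a median of 3.700 in MSC-L and 0 to 33944 CPM per cell with a median of 4.74 in MSC-S. *Acan* (aggrecan) had 251 CPM in MSC-S and a median of 0 in both groups. The transcription factors *Sox9*, *Sox5* and *Sox6* had log2 ratios of -2.95, -3.29 and -2.38. *Hapln1*, *Lect1* and *Col11a1* were called with 53.05, 68.9 and 108 CPM in MSC-S. *Col2a1*, the main collagen of cartilage, was not called, as its ratio was 4.31, -1.49 and -5.94 over the sets.

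Genes of these lists were in part carried by the same MSC-S. Of 59 cells, 57 carried *Prg4* at 10 CPM or more, 43 *Comp*, 29 *Cd34*, 27 *Thbs4*, 21 *Chad*, 13 *Pi16*, 9 *Acan* and 7 *Tnmd*. *Pi16* and *Cd34* were carried together by 12 cells, which were 92.3% of the cells with *Pi16* and 41.4% of those with *Cd34*. *Pi16* and *Comp* were carried together by 10 cells (76.9% and 23.3%), *Cd34* and *Comp* by 24 cells (82.8% and 55.8%), and all cells with *Pi16* or *Cd34* also carried *Prg4*. *Pi16* and *Chad* were carried together by 1 cell, 7.69% of the former and 4.76% of the latter. *Tnmd* was carried with *Chad* by 5 cells (71.4% and 23.8%) and with *Pi16* by 1 cell (14.3% and 7.69%). *Cd34* was carried with *Chad* by 7 cells (24.1% and 33.3%) and with *Tnmd* by 4 cells (13.8% and 57.1%). Genes and cells of these pairs were chosen after the lists had been seen, and no relation was tested.

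Of 34 tested collagen chains, 1 was called higher in MSC-L and 11 higher in MSC-S, with a median log2 ratio of -1.48. *Col8a1* was the chain called in MSC-L, at 421 against 97.4 CPM. *Col22a1*, a collagen of tissue junctions, had 407 CPM in MSC-S against 0.132 CPM (0.0271 to 0.384), and *Col6a3* 823 against 109 CPM. *Col3a1* had 3765 CPM in MSC-S and 393 CPM in MSC-L but was not called, since its log2 ratio was -0.81 in the second set, and 1 MSC-L held 57.4% of the counts of its group. The basement membrane chains *Col4a1* and *Col4a2* had ratios of 1.18 and 1.14 without a call.

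Of 11 tested small leucine-rich proteoglycans, 3 were called higher in MSC-S and 0 higher in MSC-L, with a median log2 ratio of -2.83 and medians of -3.67, -0.62 and -1.66 over the sets. *Dcn* (decorin) ran at 2.105 to 6301 CPM per cell with a median of 221 in MSC-L and 103 to 84654 CPM per cell with a median of 15019 in MSC-S. *Bgn* (biglycan), its close relative, had nearly equal levels of 3948 and 3532 CPM. Of 7 tested hyaluronan genes, 4 were called higher in MSC-S and 0 higher in MSC-L, with a median log2 ratio of -4.77. Beside *Has1* these were *Has2*, the hyaluronan receptor *Cd44* and the hyaluronan-binding *Tnfaip6*, at 43.7, 392 and 350.5 CPM in MSC-S against 0.351, 13.4 and 5.44 CPM. The called synthases, receptor and binding protein were thus all on 1 side, while the hyaluronidases *Hyal1* and *Hyal2* were not called.

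Elastic fibre genes divided evenly, with 4 of 17 tested called in each direction and a median log2 ratio of 0.68. *Fbln5* and *Ltbp2* were called in MSC-L at 2173 and 565 CPM against 285 and 120.0 CPM, together with *Efemp2* and *Ltbp1*. *Ltbp4* and *Fbln2* were called in MSC-S at 749.8 and 611 CPM against 29.2 and 17.8 CPM, together with *Mfap5* and *Ltbp3*. The families of fibulins and of latent TGF-beta binding proteins were therefore each split between the groups. Of 19 tested matrix proteases and inhibitors, 4 were called higher in MSC-L and 5 higher in MSC-S, with a median log2 ratio of -0.91 and medians of -1.21, 0.76 and -0.92 over the sets. The gelatinase *Mmp2* had 2061 CPM in MSC-S against 101 CPM in MSC-L, and the inhibitors *Timp2* and *Timp4* went opposite ways. *Timp2* had 359 CPM in MSC-L against 2187 CPM in MSC-S. *Timp4* had 87.6 CPM in MSC-L against 0.0868 CPM (0.0179 to 0.254) in MSC-S. *Mmp13*, an enzyme of bone and cartilage, was not called, because its ratio was 8.97 and 7.72 in the first 2 sets and -0.92 in the third.

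**Figure D3:**
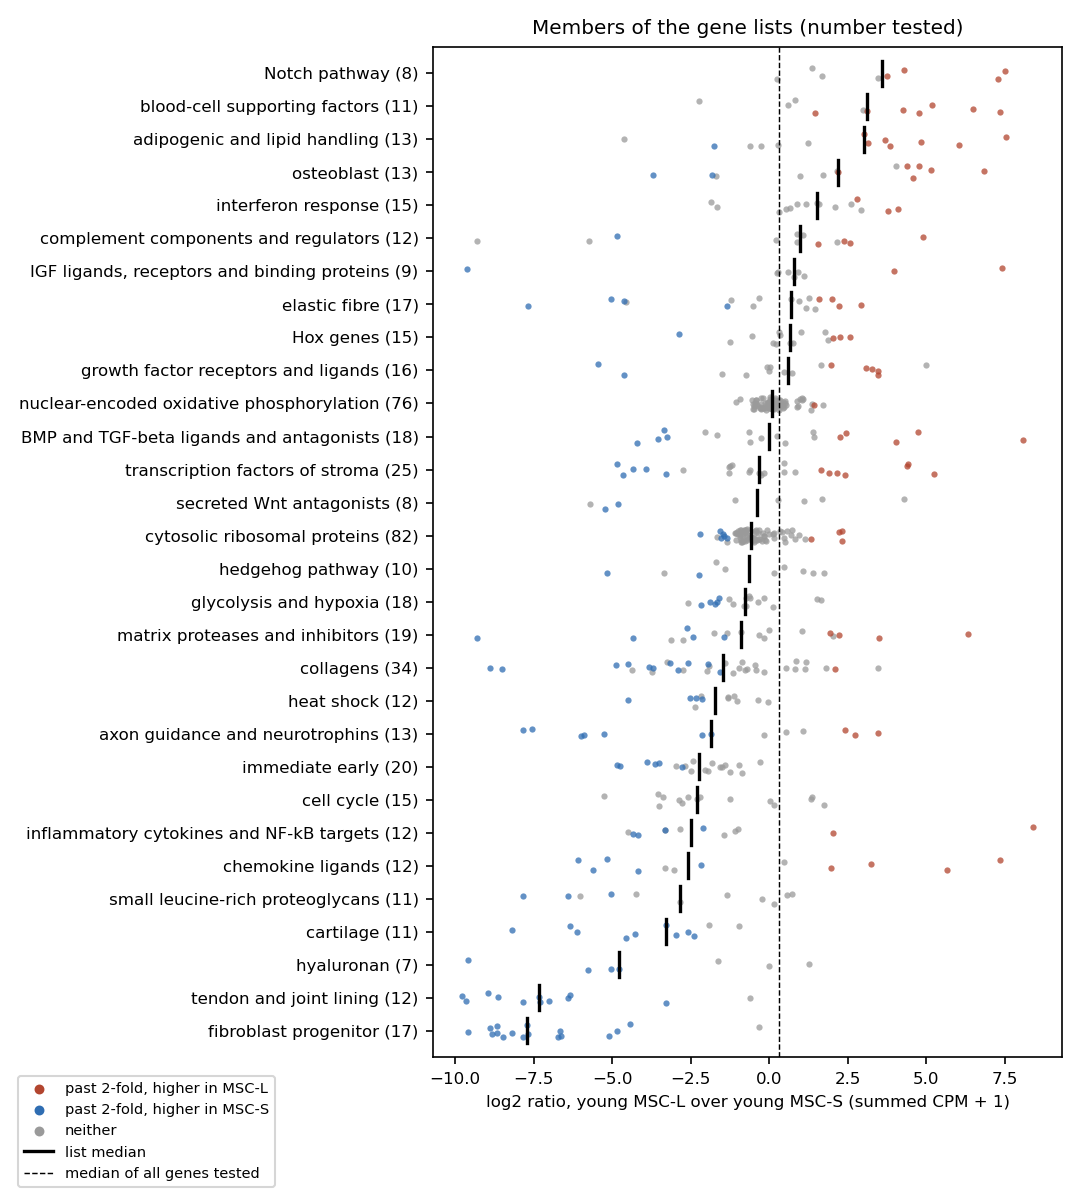
Each point is a tested gene of a list, placed by its log2 ratio of MSC-L over MSC-S (summed CPM plus 1) and coloured by its call; bars are list medians and the dashed line is 0.32, the median of all tested genes. By pooled medians the fibroblast progenitor and the tendon and joint lists stand lowest at -7.71 and -7.32, and the Notch list highest at 3.60.

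Secreted regulators of BMP, Wnt and IGF signaling were divided gene by gene. Of 18 tested BMP and TGF-beta ligands and antagonists, 5 were called higher in MSC-L and 4 higher in MSC-S, with a median log2 ratio of -0.01 and medians of -1.08, 2.27 and 0.21 over the sets. The ligands *Bmp4* and *Bmp6* had 642 and 647 CPM in MSC-L against 117 and 38.6 CPM, while *Bmp2* had 69.5 CPM in MSC-S against 6.45 CPM. Among antagonists *Grem1* ran at 0 to 2422 CPM per cell with a median of 275 in MSC-L and 0 to 21.1 CPM per cell with a median of 0 in MSC-S, and *Chrdl1* and *Fst* had log2 ratios of 4.74 and 2.25. *Chrd*, *Gdf10* and *Inhba* were called in MSC-S with 25.5, 143 and 96.9 CPM. Ligands and antagonists thus occurred on both sides. Of 8 tested secreted Wnt antagonists, 2 were called higher in MSC-S and 0 higher in MSC-L, with a median log2 ratio of -0.40 and medians of -0.61, 0.10 and -0.03 over the sets. They were *Sfrp2* and *Frzb*, and 1 MSC-S held 92.2% and 79.6% of the counts of its group. Of 10 tested hedgehog genes, 2 were called higher in MSC-S and 0 higher in MSC-L, with a median log2 ratio of -0.63 and medians of 0.00, 1.04 and -1.38 over the sets. These were the co-receptors *Cdon* and *Boc*, and *Cdon* ran at 0 to 313 CPM per cell with a median of 0 in MSC-L and 0 to 2609 CPM per cell with a median of 409.5 in MSC-S. The receptor *Ptch1* and the transcription factor *Gli1*, which rise when the pathway is active, were not called.

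Of 9 tested genes of the insulin-like growth factor system, 2 were called higher in MSC-L and 1 higher in MSC-S, with a median log2 ratio of 0.79. The calls were all binding proteins. *Igfbp4* ran at 11.4 to 30070.5 CPM per cell with a median of 9081 in MSC-L and 0 to 3740.4 CPM per cell with a median of 297 in MSC-S. *Igfbp3* had 398 CPM in MSC-L against 1.36 CPM, and *Igfbp6* 1.67 against 2097 CPM in the other direction. *Igf1* and the receptor *Igf1r* were near equal, with log2 ratios of 0.61 and 0.25.

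Of 13 tested genes of axon guidance and neurotrophins, 3 were called higher in MSC-L and 7 higher in MSC-S, with a median log2 ratio of -1.86. Class 3 semaphorins are secreted guidance cues, and all 5 of the list were called in MSC-S. *Sema3c* had a median of 0 and a summed level of 1.36 CPM in MSC-L, and ran at 0 to 2544 CPM per cell with a median of 332 in MSC-S. The neuropilins, receptors of most of them, went the other way, with *Nrp1* at 711 against 105 CPM and *Nrp2* at 336 against 62.1 CPM. *Ntn1* (netrin 1) had 329 CPM in MSC-S against 0.745 CPM, and *Slit2* 121 CPM in MSC-L against 9.93 CPM.

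Among 25 tested transcription factors of stroma, 7 were called higher in MSC-L and 5 higher in MSC-S, with a median log2 ratio of -0.31 and medians of -0.81, 0.81 and -0.18 over the sets. *Ebf3*, required by the CXCL12-rich cells of the marrow, ran at 0 to 2966 CPM per cell with a median of 1039 in MSC-L and 0 to 299.6 CPM per cell with a median of 1.63 in MSC-S. *Foxc1*, another factor of these cells, had 327 against 61.1 CPM, and *Ebf1*, not called, 685 against 487 CPM. *Runx1*, *Snai2* and *Zeb2* were called in MSC-L with log2 ratios of 1.90, 4.41 and 2.15. *Klf4*, which is also an immediate early gene, ran at 0 to 899 CPM per cell with a median of 0 in MSC-L and 0 to 3145 CPM per cell with a median of 519 in MSC-S. *Osr1*, *Osr2* and *Prrx2*, factors of limb and connective tissue, were called in MSC-S with 21.04, 85.5 and 51.3 CPM against 0.0877 (0.0106 to 0.317), 2.41 and 2.46 CPM, and *Prrx1* was near equal at -0.31.

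*Hox* genes record position along the body and the limb. MSC-L came from the femur and MSC-S from a wider set of leg, arm and pelvic bones, so bones and populations cannot be told apart. Of 15 tested, 3 were called higher in MSC-L and 1 higher in MSC-S, with a median log2 ratio of 0.66. The called genes were *Hoxa6*, *Hoxc5* and *Hoxc9*, at 11.2, 19.7 and 22.6 CPM in MSC-L, and *Hoxd9*, at 6.66 CPM in MSC-S. *Hoxa10*, at 66.2 and 51.8 CPM, and *Hoxa9*, at 70.99 and 18.7 CPM, were not called.

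Of 12 tested complement components and regulators, 4 were called higher in MSC-L and 1 higher in MSC-S, with a median log2 ratio of 0.99. *Serping1*, the inhibitor of the first component, ran at 34.2 to 15590.2 CPM per cell with a median of 6205 in MSC-L and 0 to 10073 CPM per cell with a median of 1397 in MSC-S. *C1ra*, *C2* and *Cfb* were called with log2 ratios of 2.38, 4.89 and 2.57, and the decay accelerator *Cd55* with -4.85. *Cfd* (adipsin) was not called, and 1 MSC-S held 99.8% of its counts. Of 15 tested interferon response genes, 3 were called higher in MSC-L and 0 higher in MSC-S, with a median log2 ratio of 1.53. *Ifitm3*, which blocks the entry of viruses, had 1019.6 and 351 CPM without a call, whereas the called *Ifit1*, *Irf7* and *Ifi44* had a median of 0 in both groups.

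Of 12 tested inflammatory cytokines and NF-kB targets, 2 were called higher in MSC-L and 4 higher in MSC-S, with a median log2 ratio of -2.47 and medians of -1.13, -1.30 and -2.84 over the sets. The 2 in MSC-L were the receptor *Il1r1*, at 348 against 83.6 CPM, and its antagonist *Il1rn*. *Nfkbia*, an inhibitor that NF-kB itself induces, had 972 CPM in MSC-S against 223 CPM, and *Il6*, *Tnfaip3* and *Cxcl1* were called with it. The genes of interleukin 1 itself, *Il1a* and *Il1b*, had too few counts to be tested.

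Immediate early genes answer within minutes to many stimuli, the handling of cells included. Their pooled median was lower in MSC-L than in MSC-S, the cells of the longer digestion, and digestion and population cannot be told apart. Of 20 tested immediate early genes, 6 were called higher in MSC-S and 0 higher in MSC-L, with a median log2 ratio of -2.23. Over the 3 sets the median was -4.91, -0.10 and -2.56. The summed level of the list was 1219, 9399 and 5956 CPM in MSC-L and 36914, 9675 and 30185 CPM in MSC-S. The difference was thus near 0 within the second set, where MSC-L were highest and MSC-S lowest. *Fos* ran at 0 to 12573 CPM per cell with a median of 29.1 in MSC-L and 0 to 40326 CPM per cell with a median of 5467 in MSC-S and was not called, because its log2 ratio in the second set was -0.18. *Ier3*, *Atf3*, *Nr4a1*, *Egr2*, *Myc* and *Klf4* were called with ratios from -4.84 to -2.76. Of 12 tested heat shock genes, 4 were called higher in MSC-S and 0 higher in MSC-L, with a median log2 ratio of -1.73 and medians of -2.37, -1.38 and -1.77 over the sets. *Hsp90aa1* and *Hsph1* had 94.9 and 75.2 CPM in MSC-S against 20.9 and 14.2 CPM, beside the near-identical *Hspa1a* and *Hspa1b*. The part of handling in the other calls was not tested.

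Lists of basic cell functions had medians between -2.31 and 0.08. Of 76 tested nuclear genes of oxidative phosphorylation, 1 was called higher in MSC-L and 0 higher in MSC-S, with a median log2 ratio of 0.08. Its sign turned under TMM and median-of-ratios scaling and in 2 of the 3 sets, with medians of -0.12, -0.20 and 0.37. Of 82 tested ribosomal protein genes, 4 were called higher in MSC-L and 6 higher in MSC-S, with a median log2 ratio of -0.56. Many of these have processed pseudogenes, and reads that matched several copies could not be counted for them. Of 18 tested glycolysis and hypoxia genes, 5 were called higher in MSC-S and 0 higher in MSC-L, with a median log2 ratio of -0.76. *Pkm*, *Pfkp* and *Slc2a1*, which encode enzymes and a transporter of glycolysis, had 327, 159 and 62.1 CPM in MSC-S against 97.3, 51.96 and 12.98 CPM. Of 15 tested cell cycle genes, 0 were called in either direction, and the median log2 ratio was -2.31, with medians of -0.58, -3.45 and 0.29 over the sets. *Mki67*, a marker of cycling cells, had a median of 0 in both groups, and 1 cell held 98.7% and 1 cell 85.9% of its counts.

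Some named genes had unlike ratios in young and old cells. *Igfbp3* had a log2 ratio of 7.40 in young cells and 0.32 in old cells, where MSC-L had 159 CPM and MSC-S 127 CPM. *Chrdl1* had 4.74 and 1.67, *Serping1* 1.56 and -0.47, and *Bmp2* -3.24 and 0.38. *Chad* and *Mfap5* kept their direction with smaller ratios, at -3.33 and -2.74 in old cells. The marker genes kept their direction, with old log2 ratios of 5.55 for *Cxcl12*, 3.79 for *Lepr* and -8.04 for *Ly6a*. These genes were chosen after their values were seen, and none of the differences between ages was tested.

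Promoters from 250 bases before to 50 bases after the transcript start were taken from RefSeq on build GRCm38.p6, for 945 of the 1396 genes called in MSC-L, 639 of the 923 called in MSC-S and 9234 of the 13645 tested. They were searched on both strands for 4 motifs, whose matches may share bases with each other. They were CCCNNGGG, which is like the motif of EBF factors, TGANTCA of AP-1 factors such as FOS, GGAATG of TEAD factors, and the letters of the TATA box, TATAAA. The AP-1 letters were in 4.40% (3.32 to 5.70%) of 1227 promoters of genes called in MSC-L and 9.04% (7.198 to 11.2%) of 852 promoters of genes called in MSC-S. The share was 5.14% among promoters of tested genes and 7.81% among all 32851 promoters. The EBF-like letters were in 18.7% and 24.3% of the promoters of the called genes, 18.5% of those of tested genes and 13.7% of all. TEAD letters were in 14.7% and 13.7%, against 12.1% and 14.7%, and TATA letters in 9.45% and 10.9%, against 7.16% and 13.6%. A gene with several promoters counts with each. A match is a description, not a site or a cause.

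Sequences are printed 5′ to 3′ on the strand of the gene, in lower case with the letters of a match in capitals. *Cxcl12*, the leading gene of MSC-L, is shown for its rank (chr6:117168285-117168584, plus strand), and none of the 4 motifs lies in this window. Neither do they lie in the 2 windows of *Lepr*. *Ly6a* is named only. *Tnxb* (chr17:34670285-34670584, plus strand) and *Hmcn2* (chr2:31314082-31314381, plus strand) are shown as named MSC-S genes with AP-1 letters, at bases 196 to 202 and 150 to 156 of the window. *Il1rn* (chr2:24336610-24336909, plus strand) is a named MSC-L gene with the same letters at bases 110 to 116 in 1 of its 3 windows, and *Grem1* (chr2:113758599-113758898, minus strand) is shown for EBF-like letters at bases 10 to 17. The printed genes were picked after the matches were seen, to let AP-1 windows of both directions be read side by side. EBF-like letters also lay in the windows of *Pcolce2* and *Thbs4*, named MSC-S genes whose windows are not printed.
Cxcl12: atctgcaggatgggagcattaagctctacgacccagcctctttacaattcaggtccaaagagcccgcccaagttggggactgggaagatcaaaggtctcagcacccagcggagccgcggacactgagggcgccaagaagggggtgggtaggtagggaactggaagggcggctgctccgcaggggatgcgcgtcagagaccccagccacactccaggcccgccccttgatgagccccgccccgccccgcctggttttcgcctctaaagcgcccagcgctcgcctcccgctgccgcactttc
Tnxb: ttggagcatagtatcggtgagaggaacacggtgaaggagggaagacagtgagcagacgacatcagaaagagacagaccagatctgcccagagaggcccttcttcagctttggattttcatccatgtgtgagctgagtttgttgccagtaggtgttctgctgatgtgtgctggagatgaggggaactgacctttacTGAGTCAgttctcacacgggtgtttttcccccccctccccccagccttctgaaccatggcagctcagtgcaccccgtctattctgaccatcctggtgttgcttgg
Hmcn2: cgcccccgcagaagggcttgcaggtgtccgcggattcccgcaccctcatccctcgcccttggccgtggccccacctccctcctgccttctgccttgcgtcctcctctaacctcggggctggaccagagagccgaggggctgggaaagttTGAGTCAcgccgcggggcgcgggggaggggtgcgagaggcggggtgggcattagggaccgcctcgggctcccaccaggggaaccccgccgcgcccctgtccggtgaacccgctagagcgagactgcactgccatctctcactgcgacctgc
Il1rn: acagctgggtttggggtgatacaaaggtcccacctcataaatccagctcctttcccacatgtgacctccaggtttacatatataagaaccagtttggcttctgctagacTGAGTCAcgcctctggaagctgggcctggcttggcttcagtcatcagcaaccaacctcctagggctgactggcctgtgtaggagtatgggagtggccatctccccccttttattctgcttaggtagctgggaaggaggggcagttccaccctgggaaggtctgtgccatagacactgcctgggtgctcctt
Grem1: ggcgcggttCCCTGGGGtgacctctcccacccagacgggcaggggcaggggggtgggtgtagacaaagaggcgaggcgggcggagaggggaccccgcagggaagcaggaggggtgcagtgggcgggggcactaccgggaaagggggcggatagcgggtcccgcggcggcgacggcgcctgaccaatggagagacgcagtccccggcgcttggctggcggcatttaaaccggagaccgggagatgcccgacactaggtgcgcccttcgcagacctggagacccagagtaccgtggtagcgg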

How the data were processed

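Single cells were sequenced with a Smart-Seq2-based protocol that carries no molecular identifiers. Per the labels, the authors aligned them to build GRCm38.p4 using GSNAP, dropped poor cells and deposited raw HTSeq counts per gene, taken over both strands, so that overlapping genes cannot be told apart. The table held 46078 entries for 661 cells, 270 of them under repeated symbols, which were summed to 45771 nuclear and 37 mitochondrial genes. Every column was matched to its label. Reads of the spike-in were left aside.

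Counts were summed over the 53 MSC-L and the 59 MSC-S of young mice and scaled to nuclear totals, with a pseudocount of 1 CPM in log2 ratios. A gene was tested with at least 100 counts over both groups in at least 5 cells, and called at 2-fold, pooled and in each of 3 sets of cells. Sets were divided where library numbers lay over 100 apart. Genes named in the text were the members of the lists and, for each direction, the 15 largest ratios among called genes with at least 1000 counts and a count in at least 50% of the cells of the higher group. The cells, the lists and the marker genes were chosen with earlier results of these data known. Exon lengths came from the annotation, and promoters of 300 bases from RefSeq.

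Alternatives tried were TMM and median-of-ratios scaling, CPM averaged over cells, a pseudocount of 0.1 CPM, cells thinned to 100000 counts, all genes without the filter, mitochondrial counts in the total, the pooled fold alone, 4-fold, leaving out cells of other deposited clusters, cells with at least 3 hematopoietic or endothelial markers or the highest cell of each gene, and each set alone. The tools were R 4.3.3 with edgeR 4.0.16, and Python 3.11.15 with SciPy 1.17.1, NumPy 2.4.6 and pandas 2.3.3.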

Additional observations from a re-analysis of the deposited data

Results flagged for a closer look

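7 genes were called in opposite directions in young and old cells, each time in every library-number set. The log2 ratio of MSC-L over MSC-S was -2.16 in young and 1.29 in old cells for *Ccl25*, a chemokine of the thymus and gut. It was 2.40 and -4.24 for *Galns*, a lysosomal sulfatase, 2.09 and -3.79 for *Nat14*, an acetyltransferase, and 2.21 and -2.60 for *Ttc26*, a cilium protein. It was -3.36 and 1.78 for *Gatsl3*, -1.76 and 2.36 for *Nudt16*, a nucleotide hydrolase, and -2.82 and 1.66 for *Pla2g16*, a phospholipase. All 7 were low and sparse. Their levels in young cells lay between 1.40 CPM (*Ccl25* in MSC-L) and 39.9 CPM (*Gatsl3* in MSC-S). They were detected in 7.55% (*Pla2g16* in MSC-L) to 38.98% (*Pla2g16* in MSC-S) of the young cells of a group, and a single cell held up to 94.4% of the counts (*Pla2g16* in MSC-L). The difference between the ages was not tested for any of them.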

How the results depend on the processing

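The numbers of genes past the fold, higher in MSC-L (1396) and of genes past the fold, higher in MSC-S (923) changed most with the call rule itself. Without the library-number sets, at pooled 2-fold only, they were 3924 and 2291. At 4-fold they were 537 and 449. Both changes follow from the construction of the rule. Under the other alternatives they lay between 1084 and 1618 in MSC-L and between 724 and 1127 in MSC-S.

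For 555 named genes 6660 log2 ratios were recomputed, of which 3377 stayed within the counting interval and 3283 left it. The sign was the opposite in 411 of them, 234 with a set alone, over 204 genes, none of which was called. Of 360 recomputed medians of the 30 lists, 17 had the opposite sign, 11 of them with a set alone. They belonged to 8 lists, whose medians are given by set in the report, and in 3 of the 17 the main median was past 2-fold. The median log2 ratio of chemokine ligands was 0.44 without the highest cell of each gene and 0.38 in set 1 alone, and the median log2 ratio of cell cycle genes was 0.29 in set 3 alone. The cause was not tested. Of 8 shares of cells with any count of *Lepr*, *Cxcl12*, *Ly6a* or *Pdgfra*, 3 left their interval after thinning. The shares of cells at 10 CPM were not recomputed after thinning. Of 8 promoter shares, 1 left its interval at 4-fold.

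Leaving out cells of other deposited clusters, all of them osteoprogenitor-like, removed 2 MSC-L and 9 MSC-S. Leaving out those with hematopoietic or endothelial markers removed 0 and 2. Depth limits genes with few counts, and a count of 0 is no proof of absence. No paired analysis was possible because the replicate numbers of the labels only index single cells and link no cell of one group to a cell of the other. This holds for the replicate numbers alone. The 3 library-number sets hold cells of both groups and give a paired reading, the ratios within each set, without a test since what a set is remains unstated.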
